A study of Mus musculus with 66 samples.

Results

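Gene expression in mouse gastrocnemius, a calf muscle, taken 1 d after an injection of cardiotoxin was compared with that in the same muscle taken 12 h after the injection. Cardiotoxin is a snake venom toxin that lyses muscle fibres and spares the satellite cells that rebuild them. The arrays were chosen by their labels, ctx1d and ctx12h, and these are 8 of the 66 arrays of the series. Of the 8, 4 are among the 54 arrays of the later version of an Affymetrix mouse array (Av2 in the labels) and 4 among the 12 arrays of the earlier version (A), with 2 arrays at 1 d and 2 at 12 h on each. The comparison was made within each version and combined by agreement in direction. The labels of the A arrays give the dose as 100 ul of 10 uM cardiotoxin, and all the groups compared carry the injection. Untreated gastrocnemius, from mice whose age the labels give as 8 weeks, is quoted for orientation and did not enter the main fits. It entered an alternative fit and otherwise serves to describe where levels stood. The sources used here give neither strain, genotype and sex nor the age of the injected mice. The 12 h arrays carry the same sample codes on both versions and may share RNA, whereas the codes of the 1 d arrays differ between the versions. The codes are not explained, so the 1 d arrays of both versions may not be independent either. No label states that both arrays of a group stem from different mice, and the p-values below thus cover the spread between arrays alone.

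Once its fibres are lysed, a muscle goes through a fixed order of events. Damaged and resident cells release cytokines, neutrophils enter first, and monocytes follow that become macrophages and digest the dead fibres in their lysosomes. Satellite cells leave quiescence, copy their DNA and divide as myoblasts before new fibres form. The step from 12 h to 1 d falls within the inflammatory stage, when dead fibre, incoming leukocytes and activated resident cells are all present in the muscle. In such bulk tissue, fewer cells of a type and less RNA per cell cannot be told apart.

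Each value is the deposited intensity of a probe set, a group of short probes for 1 transcript, on a linear scale. Intensities below a floor, which was 64.7 on Av2 and 646.8 on A, were raised to it before log2 was taken. Between 76.4% and 82.0% of the Av2 probe sets of the 4 arrays lay above the floor, and between 26.4% and 28.2% of the A probe sets. The muscle itself was read from 4 defining fibre genes on Av2. Acta1, the skeletal actin, had intensities of 42523 and 18204 at 1 d, against 20048 and 32253 at 12 h, and Myh4, the fast myosin IIb heavy chain, had 36760.0 and 14381 at 1 d, against 30667 and 24344 at 12 h. Ckm, the muscle creatine kinase, had 3625 and 7033 at 1 d, against 12967 and 9882 at 12 h, and the fast troponin gene Tnnt3 had 13042 and 28869 at 1 d, against 43696 and 32196 at 12 h. All 4 were bright on all arrays, so the tissue label held.

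The arrays of both groups stood further apart from each other than the arrays of most other groups. The 2 arrays of 1 d differed by over 2-fold at 1943 of 11979 Av2 probe sets (16.2%) and those of 12 h at 2723 (22.7%), the second highest and the highest of the 27 groups on Av2. On A the counts were 238 of 4479 probe sets (5.31%) at 1 d and 843 (18.8%) at 12 h, again the second highest and the highest, of 6 groups. The 12 h arrays differed in which other groups they resembled. On Av2 the second 12 h array correlated at 0.931 and 0.936 with the 1 d arrays, and at 0.817 and 0.812 with the untreated arrays, over all probe sets tested. The first 12 h array correlated at 0.867 and 0.914 with the 1 d arrays and at 0.909 and 0.907 with the untreated ones. Across probe sets, the difference between the 2 arrays of a group correlated between the versions at 0.533 for 1 d and 0.718 for 12 h. The manufacturer's added bacterial transcripts, 9 probe sets on each version, moved with this as well. Relative to the untreated arrays their geometric mean on Av2 was 1.38 and 0.65 at 1 d, against 0.68 and 1.11 at 12 h, and on A it was 1.36 and 0.69 at 1 d, against 0.67 and 1.19 at 12 h. Their part in the results was not tested. The counts of called list members are therefore given with each array left out in turn, always in the order 1 d replicate 1, 1 d replicate 2, 12 h replicate 1 and 12 h replicate 2.

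On Av2, 709 of 11979 probe sets tested (5.92%) were higher at 1 d than at 12 h and 534 (4.46%) were lower, in limma's moderated test with Benjamini-Hochberg adjustment and a threshold of 0.05. A probe set past this threshold is termed called. With each gene represented by its brightest probe set, 565 of 8083 genes (6.99%) were higher at 1 d and 401 (4.96%) were lower, of which 270 and 259 differed by over 2-fold. The 1 d arrays lay wholly above the 12 h arrays for 537 of the 565, and wholly below for 349 of the 401. A call on the difference of the means favours such genes. Over all 11979 probe sets, called or not, they lay wholly above for 1947 and wholly below for 1716. The median change over all genes was 0.0 on the log2 scale. The spread in this test came from 52 arrays at 26 times after injection. The arrays of 12 h and of 1 d lay further apart than those of the other times. Standard errors and p-values can therefore understate the spread within these groups. A fit on the 4 arrays alone called none, with 627 of 10387 probe sets at an unadjusted p under 0.05, and a required change of at least 2-fold left 6, all lower. Calls that did not rest on any single array were fewer. Only 111 genes (1.37% of those tested) were called higher, and 53 (0.656%) lower, in the full fit and also in each of the 4 fits that left out 1 array. These are termed the stable genes. For each gene list below, the share of its members called is given to be read against the 6.99% higher and 4.96% lower over all genes.

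The earlier array version gave fewer calls, mostly in the same directions. On A, 57 of 4479 probe sets (1.27%) were called higher at 1 d and 37 (0.826%) lower. Of the 509 probe sets called higher on Av2 and also tested on A, 448 (88.0%) were higher on A too, and of the 328 called lower 313 (95.4%) were lower on A. Those agreeing probe sets are 10.0% and 6.99% of the 4479 tested on both. None called on Av2 was called the opposite way on A. Of all 4479, called or not, 3296 (73.6%) had the same sign on both versions. Calls were made on both versions for 42 higher probe sets (0.938%) and 22 lower ones (0.491%). Over the 4479 probe sets the log2 changes of the versions correlated at 0.743. This is a description, since the 12 h samples may be shared and the 1 d samples may not be independent.

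**Figure D1:**
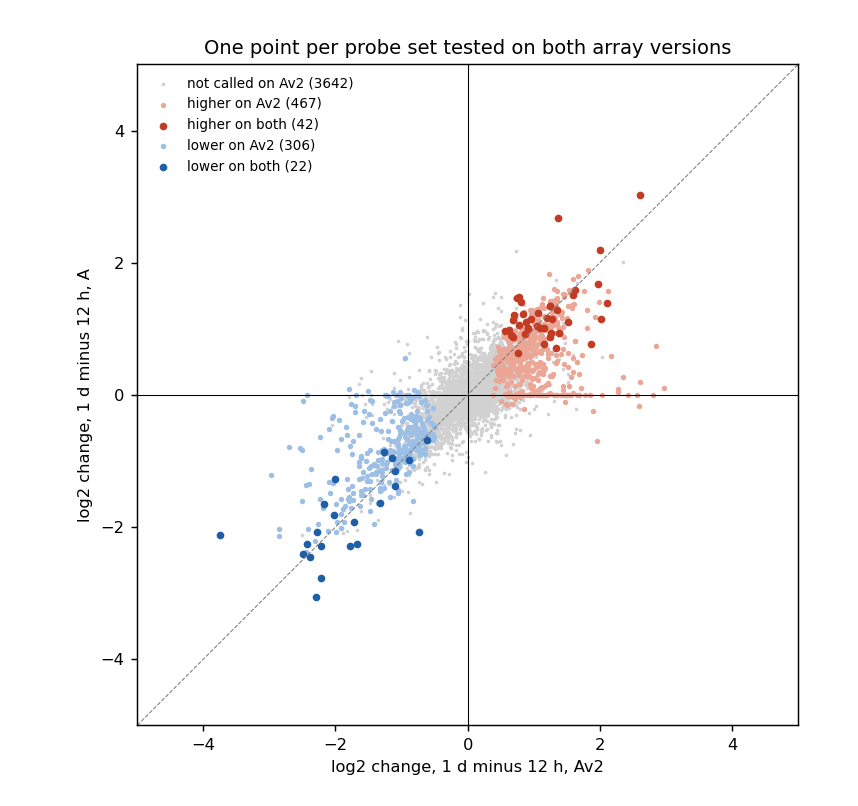
Log2 change, 1 d minus 12 h, of each probe set tested on both array versions, with Av2 on the horizontal axis and A on the vertical axis. Red points were called higher and blue points lower, with the darkest points called on both versions (42 and 22), and the dashed line marks equal change. Of the points called on Av2, 88.0% of the higher ones lie above 0 on the vertical axis and 95.4% of the lower ones below it. Of all points, called or not, 73.6% have the same sign on both axes.

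The size of the change depended on which 12 h array it was measured against. For the 565 genes called higher, the median log2 difference of the 1 d mean was 1.28 against the first 12 h array and 0.65 against the second. For the 401 called lower it was -1.53 against the first and -0.82 against the second. The difference was the larger against the first 12 h array for 461 of the 565 and for 342 of the 401. Its direction against each array taken alone was largely set by the calls, which used the mean of these same 12 h arrays. The 1 d mean was above the first and the second 12 h array for 565 and 564 of the 565. It was below them for 399 and 400 of the 401. In the fit without the first 12 h array 148 of the 565 and 88 of the 401 stayed past the threshold, against 499 and 360 in the fit without the second. Without the first 1 d array 297 and 122 did, and without the second 373 and 315.

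**Figure D2:**
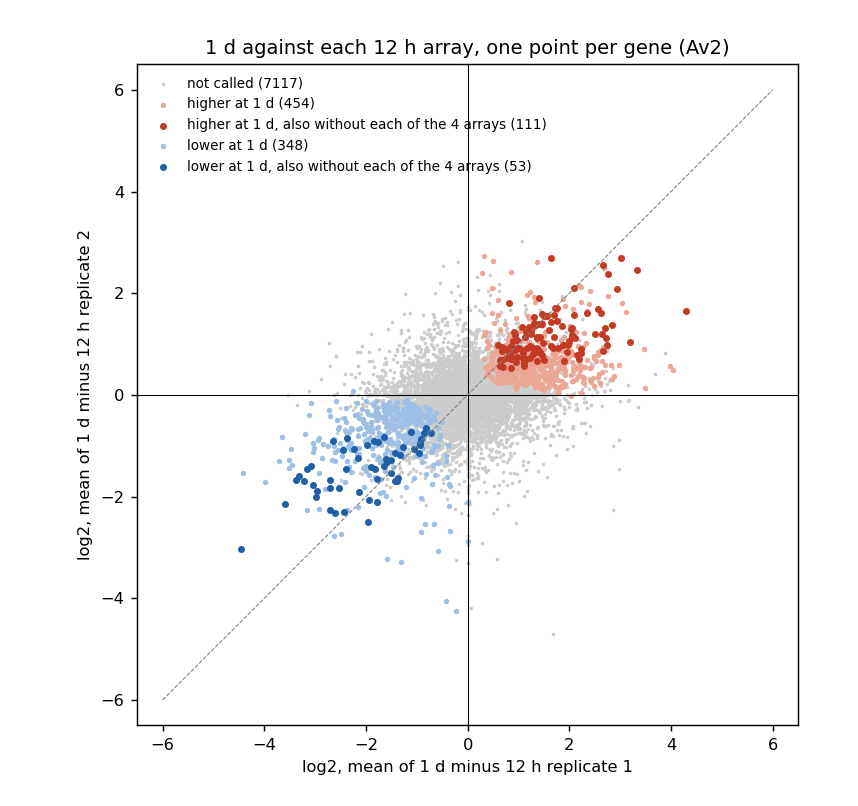
Log2 difference of the mean of the 1 d arrays from 12 h replicate 1 (horizontal axis) and from 12 h replicate 2 (vertical axis), 1 point per gene on Av2. Genes called higher are red and genes called lower blue, with the 111 and 53 stable genes darkest. Most called points lie nearer to the horizontal axis than the dashed line of equal difference, the difference being larger against replicate 1 for 461 of 565 and 342 of 401.

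The genes called lower split by where 12 h stood relative to untreated muscle. Both 12 h arrays lay above both untreated arrays for 75 of the 401, below them for 221, and overlapped them for 105. At 1 d the counts were 21 above, 329 below and 51 overlapping. For 70 genes the mean at 12 h was the highest of all 27 groups of the time course, and for 151 the untreated mean was. Of the 565 genes called higher, both 1 d arrays lay above both untreated arrays for 493, and for 114 the mean at 1 d was the highest of the time course. At 12 h 202 of the 565 already lay above the untreated arrays, 118 lay below them and 245 overlapped them. The calls used these same 1 d and 12 h values, which partly sets such placements. The same counts were not made over all genes, so they only describe the called genes.

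Il6 was among the genes that were high at 12 h and had fallen by 1 d. Interleukin 6 is a cytokine that acts through gp130 and is released by many cells after injury. Its intensity was 448 and 335 on the 1 d arrays, against 2545 and 1868 on the 12 h arrays and 43.9 and 18.1 in untreated muscle, the last below the floor. The groups did not overlap, and both times were above untreated muscle. Its log2 change was -2.49 ± 0.23 (SE; adjusted p = 7.34e-08, limma), and on A it was -2.41 or larger in size, 1 of its 1 d values being below the floor there (adjusted p = 0.00651), where the intensities were 677 and 347 at 1 d, against 4062 and 3041 at 12 h. The promoter of Il6 is shown because it holds the letters of both early response motifs searched for, NF-kB and AP-1, and that of Fgl2, described next, because its AP-1 letters lie close to the start site. Both are RefSeq sequences of GRCm38.p6, plus strand, ending at the base before the start site, at chr5:30012864-30013113 for Il6 and chr5:21372617-21372672 for Fgl2. Capitals mark TGANTCA, the AP-1 motif, in both, and GGGANTTTC, the NF-kB motif, in Il6.
Il6: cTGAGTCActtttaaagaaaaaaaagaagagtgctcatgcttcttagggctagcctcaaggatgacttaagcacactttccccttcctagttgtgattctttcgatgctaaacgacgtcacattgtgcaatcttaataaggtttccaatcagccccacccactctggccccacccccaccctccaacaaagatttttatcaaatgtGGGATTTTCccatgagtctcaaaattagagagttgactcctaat
Fgl2: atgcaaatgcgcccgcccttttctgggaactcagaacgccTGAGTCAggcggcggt

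Fgl2 encodes a fibrinogen-like protein with prothrombinase activity that macrophages and T cells make. It stood at 1034 and 2072 at 1 d, against 6428 and 5446 at 12 h and 547 and 276 in untreated muscle. All 4 arrays of the time points lay above the untreated ones, and the 12 h mean was the highest of the time course. The log2 change was -2.02 ± 0.30 (adjusted p = 7.62e-05) on Av2 and -1.81 (adjusted p = 0.018) on A. Ccl11, eotaxin, which draws eosinophils, was 255 and 329.5 at 1 d, against 2266 and 1069 at 12 h and 767 and 641 in untreated muscle. Both 1 d arrays lay below the untreated arrays as well as below the 12 h arrays. Its log2 change was -2.43 ± 0.40 on Av2 (adjusted p = 0.000185) and -2.25 or larger in size on A, where both 1 d values were below the floor (adjusted p = 0.00651).

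Of 37 acute cytokines and chemokines tested, 1 was called higher and 3 lower, with Il6 and Ccl11 stable among the lower. Cytokine calls were 2.70% higher and 8.11% lower, and 1, 1, 0 and 5 higher and 3, 3, 4 and 4 lower with 1 array left out. Csf3, the granulocyte growth factor G-CSF, was 1806 and 728 at 1 d, against 2598 and 2185 at 12 h (log2 -1.05, adjusted p = 0.0391). Ccl9, a macrophage chemokine of the mouse, was the 1 called higher, at 26882 and 25036 at 1 d, against 5688 and 19746 at 12 h (log2 1.29, adjusted p = 0.0202), and the second 12 h array stood far above the first. The monocyte attractants were high at both times without a call. Ccl2 had 15973 and 14618 at 1 d, against 12919 and 14478 at 12 h (adjusted p = 0.883), and Ccl7 had 4889 and 5945 at 1 d, against 2604 and 4202 at 12 h (adjusted p = 0.274). In untreated muscle both were below the floor or next to it, at 54.7 and 18.8 for Ccl2 and 52.4 and 66.5 for Ccl7. The neutrophil attractant Cxcl1 had 2822 and 1787 at 1 d, against 5039 and 6572 at 12 h. Its 1 d arrays were the lower on Av2 without passing there (log2 -1.36, adjusted p = 0.118), and on A it was called (log2 -1.89, adjusted p = 0.0489). For Cxcl5, Il1b and Tnf the adjusted p was 1, 0.862 and 0.302. Il1b illustrates the spread, with 4716 and 2861 at 1 d, against 2645 and 8882 at 12 h, where both 1 d values lie between the 12 h ones.

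Receptors and inhibitors of the interleukin 1, tumour necrosis factor and gp130 pathways gave 1 higher and 1 lower call among 37. Receptor and inhibitor calls were 2.70% higher and 2.70% lower, and 0, 2, 0 and 8 higher and 1, 3, 3 and 2 lower with 1 array left out. Socs2, an inhibitor of JAK-STAT signalling, was 521 and 496 at 1 d, against 1277 and 1158 at 12 h and 547 and 922 in untreated muscle (log2 -1.26 ± 0.22, adjusted p = 0.000307, called on A too). The kinase Irak1 was the higher one, at 903 and 1051 at 1 d, against 690.4 and 581 at 12 h (adjusted p = 0.0335). Among 37 interferon response genes 2 were called higher and 2 lower. Interferon response calls were 5.41% higher and 5.41% lower, and 0, 1, 0 and 10 higher and 1, 3, 2 and 3 lower with 1 array left out. The immunity related GTPase Iigp1 fell to 783 and 844 at 1 d, against 3143 and 4570.3 at 12 h, close to its 801 and 563 in untreated muscle (log2 -2.22 ± 0.30, adjusted p = 1.96e-05). On A it was called, with -2.77 or larger in size, both 1 d values being below the floor. Igtp, of the same family, was 258 and 271 at 1 d, against 536 and 612 at 12 h and 290.5 and 241 in untreated muscle (log2 -1.11, adjusted p = 0.00898). At 1 d both GTPases were thus close to their untreated levels. The 2 higher members were Lgals9 and Psmb10, with log2 changes of 0.98 and 0.62.

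Of 46 immediate early and stress transcription factors tested, none was called higher and 3 were called lower. Immediate early calls were none higher and 6.52% lower, and 0, 1, 0 and 3 higher and 2, 8, 1 and 5 lower with 1 array left out. The share of lower calls was thus close to that over all genes. Btg2, an antiproliferative gene induced by stress, was 6205 and 6070.2 at 1 d, against 12744 and 12918 at 12 h and 2009.8 and 2003 in untreated muscle. The arrays of each group lay within a few percent of each other, and 1 d stood between 12 h and the untreated level (log2 -1.06 ± 0.22, adjusted p = 0.00183). Cebpd, a transcription factor of the acute phase, was 5049 and 6576 at 1 d, against 16574 and 8921 at 12 h (log2 -1.08, adjusted p = 0.00895), and Ddit4, an inhibitor of mTOR signalling, was 1492 and 1068 at 1 d, against 4899.8 and 2305 at 12 h (log2 -1.41, adjusted p = 0.00351). Only Btg2 was stable. Fos was 2294 and 2518 at 1 d, against 4765 and 5534 at 12 h, and Atf3 3730.2 and 6054 at 1 d, against 6853 and 5254 at 12 h, with adjusted p-values of 0.225 and 0.667. The Fos groups did not overlap, with both 1 d arrays below both 12 h arrays, and its log2 change of -1.10 missed the threshold.

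Of 42 growth factors of repair 7 were called lower and 2 higher. Growth factor calls were 4.76% higher and 16.7% lower, and 0, 0, 0 and 2 higher and 1, 5, 1 and 8 lower with 1 array left out. Follistatin, Fst, binds and blocks activins and myostatin. It was 392 and 612 at 1 d, against 1882 and 2057 at 12 h and 234 and 283 in untreated muscle, and its 12 h mean was the highest of the time course. Its log2 change was -2.01 ± 0.38 (adjusted p = 0.000759) on Av2 and -1.27 or larger in size (adjusted p = 0.00651) on A, where both 1 d values were below the floor, and it was the only stable member of the list. Mstn, myostatin itself, which limits muscle growth, was 217 and 369.7 at 1 d, against 2170.1 and 525 at 12 h and 1865 and 1895 in untreated muscle (log2 -1.91, adjusted p = 0.00933). The second 12 h array was near the 1 d level, and the first was near the untreated one. Hbegf, a ligand of the EGF receptor, was 1799.9 and 2299 at 1 d, against 4816 and 3939.9 at 12 h, and was called on both versions (log2 -1.10 on Av2 and -1.38 on A). Ccn3, Inhbb, Bmp4 and Tgfb3 changed by -1.07, -0.97, -0.61 and -0.51 on the log2 scale. The 2 higher members, Bmp1 and Igf2r, differed by 0.48 and 0.38 only.

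**Figure D3:**
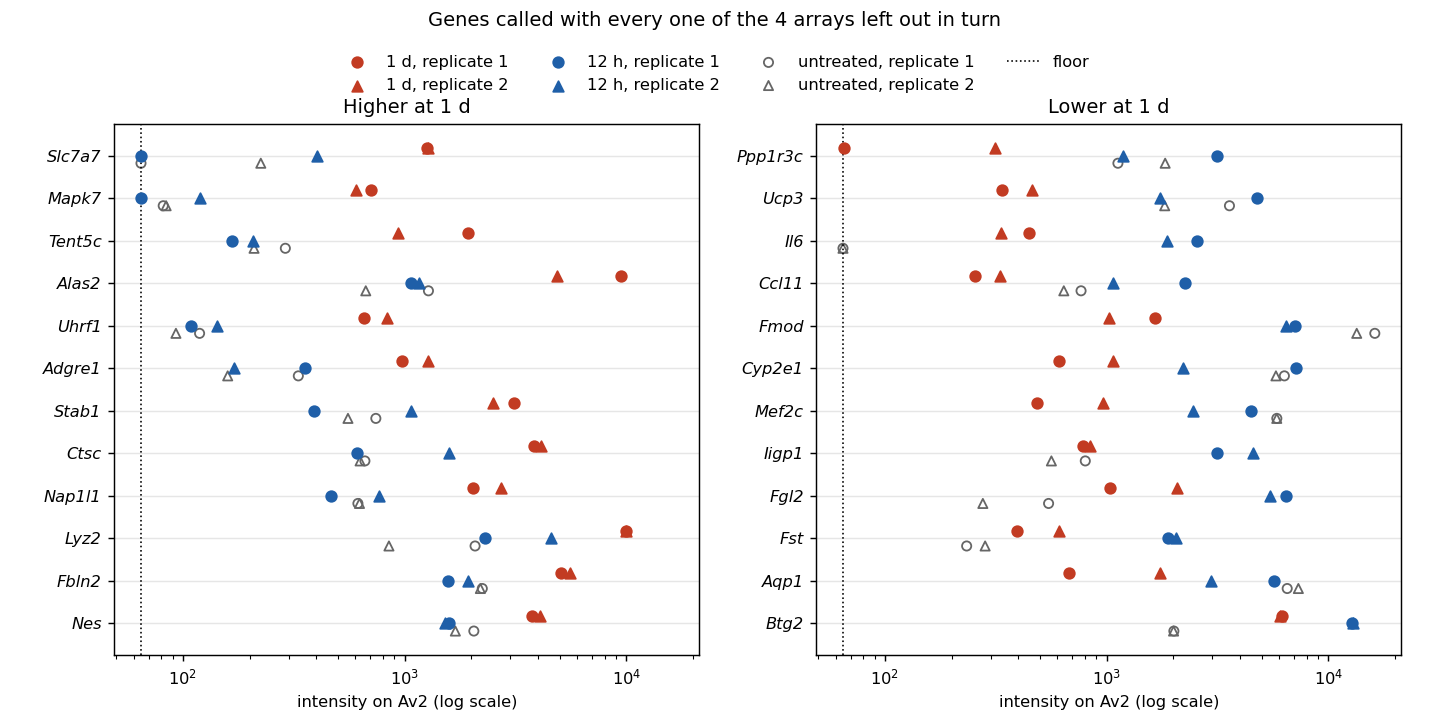
Intensities on Av2 (horizontal axis, log scale) of 24 stable genes, 12 higher at 1 d on the left and 12 lower at 1 d on the right, with values below the floor drawn at the floor (dotted line). For each gene the 1 d arrays (red), 12 h arrays (blue) and untreated arrays (open) are drawn from top to bottom, replicate 1 as a circle and replicate 2 as a triangle. In every row the red points lie wholly on one side of the blue ones, which a stable call favours. Over all 11979 Av2 probe sets, called or not, the 1 d arrays lay wholly above for 1947 and wholly below for 1716. For Il6, Fgl2, Fst and Btg2 both the red and the blue points lie to the right of untreated muscle.

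Calls of macrophage genes went mostly upwards. Of 37 markers of monocytes and macrophages tested, 18 were called higher and 1 lower (Marco), and their median log2 change was 0.96. Adgre1, which encodes F4/80, the surface marker of mouse macrophages, was 969 and 1272 at 1 d, against 356 and 170.4 at 12 h (log2 2.17 ± 0.34, adjusted p = 0.000101). The groups did not overlap, and the 12 h arrays were still at the untreated level of 332 and 159. Another probe set of Adgre1 changed by 0.24. On A the change was at least 0.59 without a call, both 12 h values being below the floor. Cd68, a lysosomal membrane protein of macrophages, was 7533 and 6209.9 at 1 d, against 1501 and 4181 at 12 h and 877 and 538 in untreated muscle (log2 1.45, adjusted p = 0.000325). Lyz2, lysozyme M, was 9924 and 9973 at 1 d, against 2294 and 4589 at 12 h (log2 1.62 ± 0.27, adjusted p = 0.000209), and was called on A with 1.59. Cd68 was above untreated muscle on both 12 h arrays already, and farther above it on the second. Mpeg1, a pore-forming protein of macrophages, and C3ar1, a complement receptor, were the remaining stable members, with log2 changes of 1.76 and 1.61. Marco, a scavenger receptor and the lower member, was 37.1 and 13.5 at 1 d, against 29.3 and 474 at 12 h, so that only the second 12 h array rose above the floor.

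Receptors that mark incoming monocytes behaved alike and rested more on the first 12 h array. Ccr2, the receptor for Ccl2, was 7617 and 7314 at 1 d, against 1463 and 4634 at 12 h and 179 and 64.8 in untreated muscle (log2 1.52, adjusted p = 0.00336). Csf1r, the receptor of the macrophage growth factor, was 3995 and 4056 at 1 d, against 1103 and 2666 at 12 h (log2 1.23, adjusted p = 0.000841). In both cases the 2 arrays of 1 d agreed closely, the 12 h arrays did not, and the call was lost without the first 12 h array. Macrophage calls were 48.6% higher and 2.70% lower, and 10, 15, 5 and 28 higher and 0, 0, 1 and 0 lower with 1 array left out. The summed level of the 37 markers was 228097 and 172970.0 at 1 d, against 72479 and 175525 at 12 h and 17566 and 13213 in untreated muscle. By this sum, which bright genes weigh on most, the second 12 h array already lay in the range of 1 d. The median log2 change of the list was 1.64 against the first 12 h array and 0.38 against the second. Arg1, arginase, which marks macrophages of repair, was 37010.0 and 20285 at 1 d, against 1857 and 15546 at 12 h, and missed the threshold (log2 2.35, adjusted p = 0.0624). In untreated muscle it was below the floor.

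The lysosome was the list with the largest share of members called. Of 38 genes of lysosomal digestion and phagocytosis 21 were higher at 1 d and none lower, with 9 of them stable, and 27 of the 30 tested on A were higher there. Ctsc, the protease that activates granule enzymes of leukocytes, was 3817 and 4106 at 1 d, against 608 and 1589 at 12 h and 662 and 629.6 in untreated muscle. The log2 change was 2.01 ± 0.29 (adjusted p = 5.16e-05) and 2.19 on A (adjusted p = 0.0449). Glb1, the lysosomal galactosidase, was 468 and 525 at 1 d, against 137 and 194 at 12 h (log2 1.61, adjusted p = 3.2e-06). Both 12 h arrays of Ctsc and Glb1 stayed clear of the 1 d arrays. Grn, progranulin, had 5148 and 4219.7 at 1 d, against 1116 and 2123 at 12 h, and Lipa, the acid lipase that frees cholesterol from engulfed lipid, had 1168 and 883 at 1 d, against 326 and 378 at 12 h (log2 1.60 and 1.53, adjusted p = 8.92e-06 and 0.000596). Gusb, Asah1, Ctsa, Lgmn and Cd68 were the other stable members. The bright membrane and protease genes moved less, with 0.58 for Lamp1, 1.01 for Ctsb and 0.89 for Ctss. Lysosome calls were 55.3% higher and none lower, and 11, 23, 10 and 27 higher and 0, 1, 0 and 1 lower with 1 array left out.

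Stab1, Slc7a7 and Tgfbi were called higher too. Stab1, a scavenger receptor, was 3106 and 2504 at 1 d, against 390.2 and 1069 at 12 h (log2 2.11 ± 0.26, adjusted p = 5.96e-06), and was called on both versions. Slc7a7, an amino acid transporter, was 1259 and 1273 at 1 d, against 50.2 and 401 at 12 h, and had the largest rise of the genes named (log2 at least 2.97 since the first 12 h array was below the floor, adjusted p = 6.82e-05). Tgfbi, a matrix protein that macrophages secrete, was 18157 and 14221 at 1 d, against 2447 and 7416 at 12 h and 579 and 706 in untreated muscle (log2 1.92, adjusted p = 0.000135). All 3 were stable. On A 3 of the 4 Slc7a7 values were below the floor. Of 17 complement genes 4 were called higher (C3ar1, Cfp, C1qb and C1qa, log2 0.66 to 1.61) and 2 lower. For C1qb another probe set changed by -0.47 without a call. The 2 genes called lower encode inhibitors that shield host cells from complement. Cd55 was 85.4 and 83.2 at 1 d, against 376 and 199 at 12 h (log2 -1.70, adjusted p = 0.000464), and Cd59a was 506 and 650.5 at 1 d, against 1502 and 1234 at 12 h (log2 -1.25, adjusted p = 0.0284). Complement calls were 23.5% higher and 11.8% lower, and 5, 2, 1 and 9 higher and 1, 3, 1 and 2 lower with 1 array left out.

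Neutrophil genes were high at both times, and none of 25 tested was called in limma, with 3 higher and 1 lower at an unadjusted p under 0.05. With 1 array left out, neutrophil calls were 0, 1, 0 and 3 higher and none lower. S100a8, a subunit of calprotectin, was 44558 and 20058 at 1 d, against 15362 and 26267 at 12 h and 80.3 and 113 in untreated muscle, and S100a9, its partner, was 13929 and 11916 at 1 d, against 8619 and 13167 at 12 h. The ranges overlapped. Csf3r, the G-CSF receptor, had 5107 and 2059 at 1 d, against 2734 and 4099 at 12 h, and Ltf, a granule protein, had 272 and 143.5 at 1 d, against 388 and 174 at 12 h. The summed level of the list was 197261 and 116663 at 1 d, against 93722 and 160901 at 12 h and 7821 and 8179 in untreated muscle. It followed the added bacterial transcripts, the first 1 d array and the second 12 h array being the higher of their pairs, and the part of those transcripts in it was not tested.

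The calls of B cell genes rested on 1 array. Of 14 B cell genes 5 were called lower and none higher, and of 22 T and natural killer cell genes 2 lower and none higher. Cd79b, a subunit of the B cell receptor, was 180.2 and 109 at 1 d, against 188 and 2334 at 12 h, and Ms4a1, which encodes CD20, was 449 and 202 at 1 d, against 452 and 2529 at 12 h. Ighm, the heavy chain of IgM, was 1587 and 1252 at 1 d, against 2247 and 8114 at 12 h and 3424 and 3245 in untreated muscle. In each the second 12 h array stood alone, while the first lay close to or between the 1 d and untreated arrays. The log2 changes were -2.24, -1.83 and -1.60, with adjusted p-values of 0.0232, 0.00755 and 0.00119, and those of the other B cell genes called were -1.81 for Pou2af1 (at least, its 1 d arrays being below the floor) and -1.06 for Blk. B cell calls were none higher and 35.7% lower, and 0, 0, 0 and 1 higher and 5, 2, 9 and 0 lower with 1 array left out. The summed level of the list was 7300.0 and 4973 at 1 d, against 5308 and 24204 at 12 h and 6488 and 5770.0 in untreated muscle. Cd79a, the other subunit, was 536 and 366 at 1 d, against 362 and 3359 at 12 h, without a call. Of the class II antigen presentation genes, which B cells and macrophages share, 3 of 17 were higher (Ifi30, Lgmn and Ctss) and H2-Eb1 was lower, at 2149 and 1339 at 1 d, against 2254 and 5172 at 12 h. Class II calls were 17.6% higher and 5.88% lower, and 2, 3, 1 and 5 higher and 1, 0, 6 and 0 lower with 1 array left out. The T cell genes called were Cd4 and Cd6 (log2 -1.51 and -0.71), with Cd3e and Cd3g near the floor on all 4 arrays, at no more than 153.3 and 128.4. T and natural killer cell calls were none higher and 9.09% lower, and none higher and 3, 0, 5 and 0 lower with 1 array left out. Of 11 mast cell and eosinophil genes none was called in limma, with 1 higher and 3 lower at an unadjusted p under 0.05. With 1 array left out, mast cell and eosinophil calls were 0, 1, 0 and 0 higher and none lower.

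Of 45 genes of DNA replication tested, 11 were called higher at 1 d and none lower, and 29 had a positive change, with a median log2 change of 0.49. Uhrf1, which recruits the maintenance DNA methyltransferase to newly copied DNA, was 656 and 834 at 1 d, against 108.4 and 143 at 12 h and 119 and 93.0 in untreated muscle (log2 2.57 ± 0.39, adjusted p = 8.59e-05). The 12 h arrays lay near the untreated ones and the 1 d arrays well above. Mcm3 and Mcm4, subunits of the replicative helicase, were the next stable members. Mcm3 had 715 and 881 at 1 d, against 497 and 496 at 12 h (log2 0.68, adjusted p = 0.00214), and Mcm4 had 577 and 528 at 1 d, against 225 and 317 at 12 h (log2 1.05, adjusted p = 0.00047). Cdc6, which loads the helicase on origins, had 182 and 227 at 1 d, against 118 and 108.3 at 12 h (log2 0.85, adjusted p = 0.00136). None of the 4 had groups that overlapped. Mcm5, Mcm7, Mcm2, the loading factor Cdt1, the ligase Lig1, the chromatin assembly factor Chaf1a and the methyltransferase Dnmt1 were called as well, with log2 changes between 0.65 (Dnmt1) and 2.22 (Chaf1a). Pcna, the sliding clamp, was not, at 1115 and 2186 at 1 d, against 1271 and 1136 at 12 h (adjusted p = 0.652). On A the list was mostly at the floor: 14 members were tested there, of which 5 had a positive change, with a median of 0.00. Replication calls were 24.4% higher and none lower, and 7, 7, 5 and 11 higher and 0, 1, 1 and 2 lower with 1 array left out.

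The replication genes are known targets of E2F factors, so their promoters were read for TTTGGCGC and TTTCCCGC, forms of the E2F motif, on both strands. The windows run from 250 bases before to 50 after each start site in RefSeq's table for GRCm38.p6. Either form was present in 6 of the 16 windows (37.5%) of the 10 replication genes called higher that had a window, and in 11 of 49 (22.4%) for all replication genes tested. Over all genes tested the share was 2.68%, and over the whole RefSeq set 1.56%. All genes called higher gave 2.57% and all called lower 0.765%. None of these shares was tested. Stretches of Mcm5 (chr8:75109320-75109407, plus strand), Mcm7 (chr5:138172001-138172088, minus strand) and Cdc6 (chr11:98907973-98908060, plus strand) show the match in capitals with its neighbours.
Mcm5: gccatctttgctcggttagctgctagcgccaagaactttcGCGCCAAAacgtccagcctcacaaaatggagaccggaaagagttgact
Mcm7: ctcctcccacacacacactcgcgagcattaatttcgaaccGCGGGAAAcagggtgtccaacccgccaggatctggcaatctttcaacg
Cdc6: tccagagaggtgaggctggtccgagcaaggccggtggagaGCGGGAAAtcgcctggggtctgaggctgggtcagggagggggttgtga

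Cyclins of entry into the cycle were among the higher calls. Of 25 cyclins and cell cycle inhibitors 5 were called higher and 4 lower. Ccnd1, cyclin D1, which starts the G1 phase, was 1288 and 2052 at 1 d, against 502 and 739 at 12 h and 1112 and 687 in untreated muscle (log2 1.42 ± 0.25, adjusted p = 0.000428). Ccnd2 was 184 and 497 at 1 d, against 37.6 and 69.7 at 12 h (log2 at least 2.17, the first 12 h array being below the floor, adjusted p = 0.0044), and their partner kinase Cdk4 was 3601 and 4725 at 1 d, against 2194 and 2825 at 12 h (log2 0.73, adjusted p = 0.00487). Each of the 3 had 1 d arrays above both 12 h arrays. Cdk2 and Cdk5 were the other higher members. The lower ones were the inhibitors Cdkn1c, at 202 and 290.0 at 1 d, against 597 and 369 at 12 h (log2 -0.95), and Btg2, with Ccng1 and Gas6. Ccnd1, Cdk2, Cdk5 and Btg2 were the stable members. Cyclin and inhibitor calls were 20% higher and 16% lower, and 6, 3, 5 and 5 higher and 1, 4, 1 and 4 lower with 1 array left out. Of 39 mitosis genes 2 were called higher (Cks1b and Smc2) and 2 lower (Kif4 and Nek2). Mitosis calls were 5.13% higher and 5.13% lower, and 1, 1, 0 and 4 higher and 1, 1, 0 and 2 lower with 1 array left out. Both shares were close to those over all genes. Mki67, the proliferation marker, was below the floor on all 4 arrays, and Cdk1, the mitotic kinase, was 95.4 and 68.1 at 1 d, against 106 and 332 at 12 h (adjusted p = 0.2).

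Of 38 heat shock proteins and chaperones 9 were higher and 2 lower. Chaperone calls were 23.7% higher and 5.26% lower, and 6, 4, 5 and 10 higher and 0, 4, 0 and 6 lower with 1 array left out. Without 1 d replicate 2 the higher calls thus no longer outnumbered the lower ones. Those of the endoplasmic reticulum led: Hsp90b1, its Hsp90, was 9218 and 8999 at 1 d, against 2478 and 4623 at 12 h and 2429.8 and 2379 in untreated muscle (log2 1.43 ± 0.18, adjusted p = 5.96e-06). Serpinh1, the collagen chaperone, was 4524 and 5835 at 1 d, against 2309 and 2176 at 12 h (log2 1.20, adjusted p = 7.03e-05), and was called on A with 1.17. Both were stable. The isomerases Pdia4 and Pdia6 and the chaperone Hspa5 followed with 1.16, 1.05 and 0.97, the cytosolic Hsp90aa1 with 0.87, and 3 subunits of the cytosolic chaperonin, Cct4, Cct5 and Cct7, with 0.59 to 0.64. The small heat shock protein Hspb8 and its partner Bag3 were the lower ones (log2 -0.94 and -0.96), and the inducible Hspa1a was not called (adjusted p = 0.304). Among 35 genes of ribosome biogenesis 6 were higher and none lower, namely Srm, Pes1, Ranbp1, Fbl, Npm1 and Ran, none of them stable. Ribosome biogenesis calls were 17.1% higher and none lower, and 3, 0, 0 and 9 higher and 0, 1, 0 and 1 lower with 1 array left out. Pes1, of the large subunit's assembly, was 669 and 613 at 1 d, against 316 and 344 at 12 h (log2 0.96, adjusted p = 0.036). Of 20 ribosomal proteins tested 4 were higher and none lower, with 0.46 for Rps3 and 0.52 for Rpl8. Ribosomal protein calls were 20% higher and none lower, and 5, 1, 0 and 3 higher and none lower with 1 array left out. No gene of the 33 for the proteasome and the atrophy ligases was called in limma, with 5 higher and 1 lower at an unadjusted p under 0.05. With 1 array left out, proteasome and ligase calls were 2, 1, 1 and 2 higher and 0, 2, 0 and 2 lower.

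**Figure D4:**
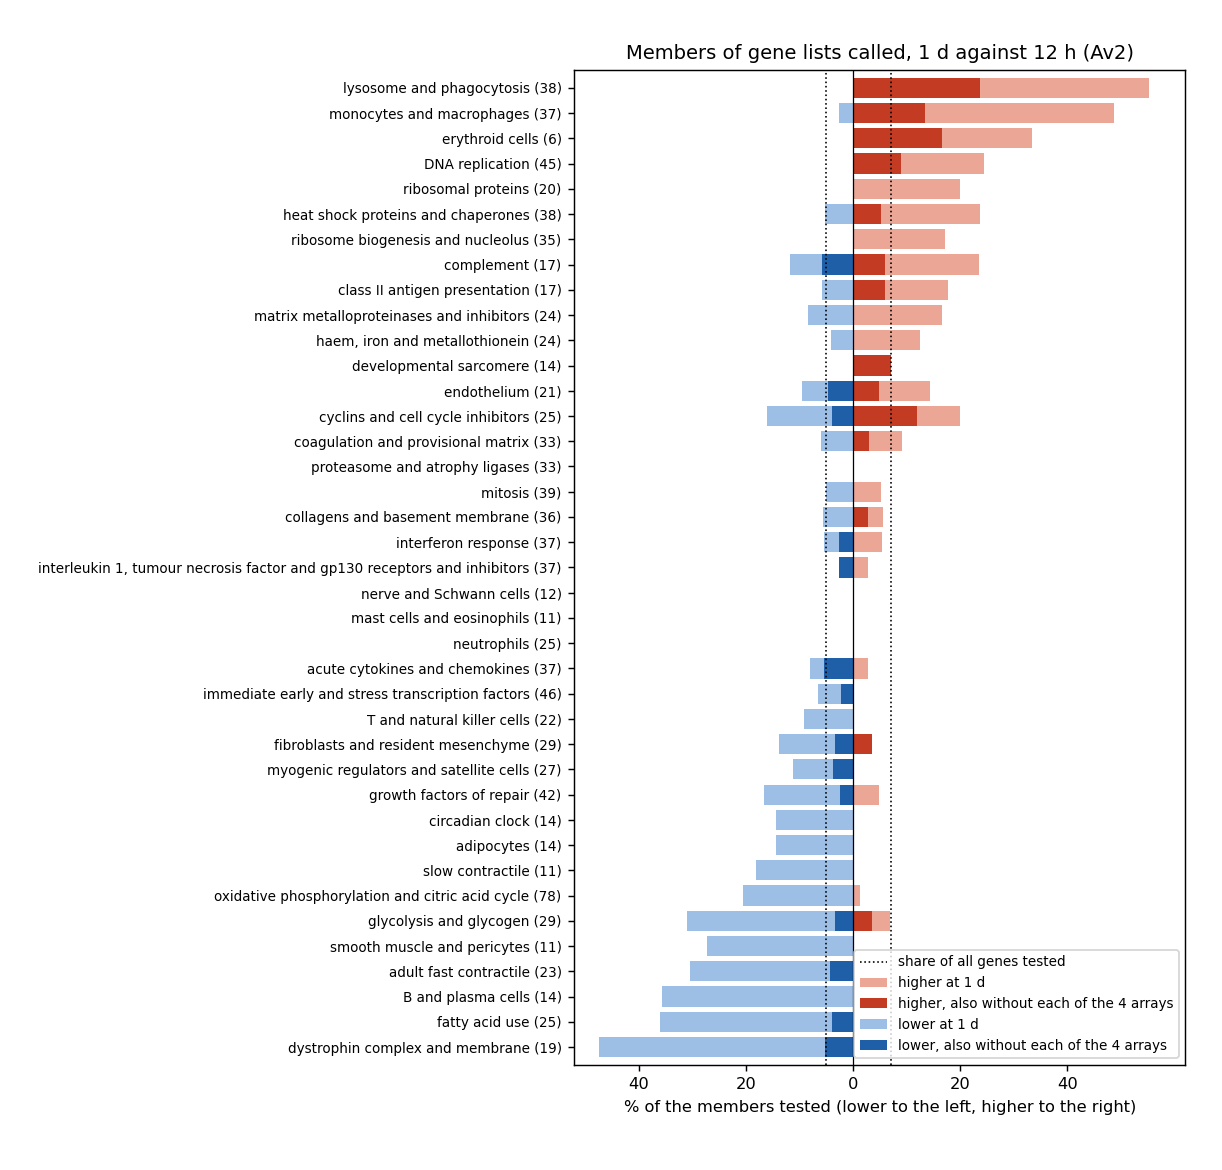
Share of the members tested that were called higher (red, to the right) and lower (blue, to the left) at 1 d on Av2, for 39 gene lists with the number tested in brackets, in order of the difference between both shares. The darker part of a bar is the stable members, and the dotted lines are the shares over all genes tested, 6.99% and 4.96%. The bars of the lysosome and of macrophages reach farthest to the right and that of the dystrophin complex farthest to the left, and the dark part of the leftward bars is small.

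Matrix genes went both ways. Of 29 genes of fibroblasts and resident mesenchyme 1 was higher and 4 lower. Fibroblast calls were 3.45% higher and 13.8% lower, and 1, 1, 1 and 2 higher and 2, 4, 1 and 4 lower with 1 array left out. Fmod, fibromodulin, which organises collagen fibrils in tendon, was 1659 and 1024 at 1 d, against 7092 and 6452 at 12 h and 16197 and 13424 in untreated muscle, with the lowest adjusted p of the genes named (log2 -2.38 ± 0.21, adjusted p = 4.31e-08). On A its intensities were 1112 and 704 at 1 d, against 5165 and 4514 at 12 h (log2 -2.45). It declined in steps, with no overlap between untreated, 12 h and 1 d arrays. Fbln2, fibulin 2, a protein of basement membranes, went the other way with 5077 and 5556 at 1 d, against 1574 and 1939.8 at 12 h and 2239.8 and 2196 in untreated muscle (log2 1.60 ± 0.19, adjusted p = 3.62e-06, called on A too). Col1a2, a chain of type I collagen, and Col6a1 changed by -1.23 and -0.58 on the log2 scale, and Clec3b, tetranectin, by -1.57. Col1a2 and Col6a1 also made up the lower calls among 36 collagen and basement membrane genes, and Serpinh1 and the prolyl hydroxylase P4ha1 (log2 1.09) the higher ones. Collagen calls were 5.56% higher and 5.56% lower, and 1, 4, 1 and 3 higher and 0, 2, 1 and 3 lower with 1 array left out.

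Of 33 genes of coagulation and provisional matrix 3 were higher (Tgfbi, Timp1 and Vcan) and 2 lower (F3 and Hbegf). Coagulation calls were 9.09% higher and 6.06% lower, and 2, 5, 1 and 10 higher and 0, 1, 2 and 1 lower with 1 array left out. Timp1, an inhibitor of matrix metalloproteinases, was 24600.0 and 19944 at 1 d, against 5900.3 and 13411 at 12 h and 1023 and 1377 in untreated muscle (log2 1.32, adjusted p = 0.000779). The provisional matrix proteoglycan versican, Vcan, was 3676 and 3199.8 at 1 d, against 1200.2 and 2163 at 12 h (log2 1.09), and F3, tissue factor, was 195 and 189 at 1 d, against 336.3 and 567 at 12 h (log2 -1.19, adjusted p = 0.0195). The protease Mmp3 was 9374 and 4326 at 1 d, against 1017 and 7376 at 12 h and 82.2 and 79.8 in untreated muscle. Its groups overlapped and it was not called (adjusted p = 0.258), and neither was tenascin, Tnc (adjusted p = 0.161). Among 24 metalloproteinases and inhibitors 4 were higher (Adam10, Adam12, Mmp12 and Timp1, log2 1.32 to 1.68) and 2 lower. The lower pair were inhibitors: Timp3 was 635 and 1732 at 1 d, against 5843 and 2426 at 12 h (log2 -1.84, adjusted p = 0.000959), and Timp2 changed by -0.66. None of the members of this list was stable. Metalloproteinase and inhibitor calls were 16.7% higher and 8.33% lower, and 3, 4, 0 and 7 higher and 0, 1, 1 and 1 lower with 1 array left out.

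The calls of muscle fibre genes all went downwards in 3 lists, and mostly needed the first array of each group. Of 23 adult fast contractile genes 7 were called lower, of 11 slow ones 2, and of 19 genes of the dystrophin complex and the fibre membrane 9, with none higher in any of the 3 lists. Fast contractile calls were none higher and 30.4% lower, and 0, 0, 0 and 1 higher and 1, 11, 1 and 9 lower with 1 array left out. Slow contractile calls were none higher and 18.2% lower, and none higher and 0, 8, 0 and 2 lower with 1 array left out. Dystrophin complex calls were none higher and 47.4% lower, and none higher and 2, 8, 1 and 11 lower with 1 array left out. Cacng1, a subunit of the calcium channel of the T tubule, was 431 and 1246 at 1 d, against 4753 and 2338 at 12 h and 8415 and 7728 in untreated muscle (log2 -2.19 ± 0.30, adjusted p = 2.05e-05). Capn3, the muscle calpain, was 944 and 1199 at 1 d, against 5552 and 1901 at 12 h (log2 -1.61, adjusted p = 0.000231). These were the stable members, and in both the 1 d arrays lay below the 12 h arrays and the 12 h arrays apart from each other. Ryr1, the calcium release channel, was 2120.1 and 5778 at 1 d, against 20300.0 and 7452 at 12 h (log2 -1.81, adjusted p = 0.00107), and Sgca, a sarcoglycan, 396 and 1802 at 1 d, against 5165 and 2082 at 12 h (log2 -1.96). There the second 1 d array came close to the second 12 h array. The chloride channel Clcn1 had 201 and 352 at 1 d, against 2376 and 1270.2 at 12 h (log2 -2.71, adjusted p = 0.00181), and Ckm changed by -1.16 (adjusted p = 0.0433), whereas Acta1, Myh4 and Tnnt3 were not called. The summed level of the fast list was 201191 and 228695 at 1 d, against 395583 and 331556 at 12 h and 464782 and 549461 in untreated muscle.

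Oxidative metabolism depended strongly on single arrays. Of 78 genes of the respiratory chain and the citric acid cycle 16 were called lower and 1 higher (Cox6a1), none of them stable. Oxidative calls were 1.28% higher and 20.5% lower, and 1, 0, 1 and 1 higher and 1, 34, 0 and 61 lower with 1 array left out. The median log2 change of the list was -1.40 against the first 12 h array and -0.01 against the second. Its summed level was 203704 and 311325 at 1 d, against 639567 and 257715 at 12 h and 869611 and 857980.0 in untreated muscle, so the second 12 h array lay between the 1 d arrays. Idh3a, of the citric acid cycle, was 1256 and 1643 at 1 d, against 5606 and 2335 at 12 h (log2 -1.33, adjusted p = 0.00047), and Sdha, of succinate dehydrogenase, 507 and 878 at 1 d, against 2488 and 972 at 12 h (log2 -1.22, adjusted p = 0.00373). Cox6a1, the non-muscle form of a cytochrome oxidase subunit, was 7757 and 11027 at 1 d, against 4585 and 6473 at 12 h, and was called on both versions (log2 0.76 on Av2). Both of its 1 d arrays were above both 12 h arrays.

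Fatty acid and sugar use held several of the largest falls. Of 25 genes of fatty acid use 9 were lower and none higher. Ucp3, a mitochondrial uncoupling protein of muscle, was 338 and 462 at 1 d, against 4755 and 1744 at 12 h and 3580.1 and 1828 in untreated muscle (log2 -2.87 ± 0.36, adjusted p = 8.74e-06), and it was the stable one. Fatty acid calls were none higher and 36% lower, and none higher and 3, 11, 1 and 19 lower with 1 array left out. Ppp1r3c, which targets a phosphatase to glycogen, had the largest fall of all genes named, with 65.7 and 315 at 1 d, against 3160.2 and 1180.1 at 12 h and 1124 and 1836 in untreated muscle (log2 -3.75 ± 0.49, adjusted p = 1.14e-05). Its first 1 d value was next to the floor, and on A it was called with -2.12 or larger in size, its first 1 d value being below the floor. Among 29 genes of glycolysis and glycogen 9 were lower and 2 higher, and for 2 enzymes the isoforms changed in opposite directions. Pgam2, the muscle phosphoglycerate mutase, was 1137 and 6079 at 1 d, against 29268 and 5487 at 12 h (log2 -2.27, adjusted p = 0.00518), while Pgam1, the form of other tissues, was 5021 and 4139 at 1 d, against 1015 and 2341 at 12 h (log2 1.56, adjusted p = 0.00218). Likewise Pfkl, the liver-type phosphofructokinase, was 4806 and 3265 at 1 d, against 1027 and 2205 at 12 h (log2 1.40, adjusted p = 0.000452), and Pfkm, the muscle type, was 4918 and 11564 at 1 d, against 26476 and 14832 at 12 h (log2 -1.39, adjusted p = 0.00786). In Pgam2 the second 1 d array lay above the second 12 h array, whereas in the other 3 genes the groups did not overlap. Slc2a4, the insulin-responsive glucose transporter, and Phka1, of phosphorylase kinase, changed by -2.85 and -2.24. Glycolysis and glycogen calls were 6.90% higher and 31% lower, and 2, 2, 1 and 2 higher and 2, 10, 1 and 14 lower with 1 array left out.

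Of 27 myogenic and satellite cell genes 3 were lower and none higher. Myogenic calls were none higher and 11.1% lower, and 1, 0, 1 and 1 higher and 2, 6, 3 and 8 lower with 1 array left out. Myod1, which commits satellite cells to muscle, was 1897 and 3206 at 1 d, against 5342 and 3942 at 12 h and 1839 and 2511 in untreated muscle (log2 -0.90 ± 0.20, adjusted p = 0.00381). Its 12 h arrays were above both the others, and the call was lost without the first 12 h array. Mef2c, a transcription factor of differentiated fibres, was 486 and 962 at 1 d, against 4471 and 2455 at 12 h and 5855 and 5851 in untreated muscle (log2 -2.28 ± 0.26, adjusted p = 3.2e-06), was stable and was called on A. Mef2d changed by -0.76 (adjusted p = 0.00549). Myog, Myf6, Myf5 and Snai2 were not called. Myog was 322 and 854 at 1 d, against 672 and 1043 at 12 h, Myf6 was 1558 and 5171 at 1 d, against 8225 and 4074 at 12 h, and Snai2, a transcription factor of mesenchymal cells and myoblasts, was 604 and 763 at 1 d, against 600.2 and 482 at 12 h (adjusted p = 0.245, 0.0893 and 0.339). Of 14 genes of the developmental sarcomere only nestin, Nes, an intermediate filament of myoblasts and other progenitors, was called. It was 3748 and 4066 at 1 d, against 1589.7 and 1517 at 12 h and 2052 and 1693 in untreated muscle (log2 1.33, adjusted p = 5.16e-05, called on A too). In it the arrays of each group lay close together and the groups were far apart. Developmental sarcomere calls were 7.14% higher and none lower, and 1, 1, 1 and 1 higher and 0, 3, 0 and 1 lower with 1 array left out.

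Alas2 had its highest mean of the time course at 1 d. It encodes aminolaevulinate synthase, the first enzyme of haem synthesis, in its red cell form, and had 9415 and 4889.6 at 1 d, against 1069 and 1159 at 12 h and 1280.4 and 668 in untreated muscle (log2 2.61 ± 0.52, adjusted p = 0.00123). On A the values were 7926 and 3529 at 1 d, against 519 and 406 at 12 h (log2 at least 3.03, both 12 h values being below the floor, adjusted p = 0.0208). Its 1 d mean of 7152 compares with the next highest of the 27 groups, 1114 at 12 h. Hbb-b2, a beta globin, was called too, at 8201 and 10806 at 1 d, against 3667 and 1527 at 12 h (log2 1.99, adjusted p = 0.0291), and lost its call without the second 12 h array and without either 1 d array. The other 4 of the 6 erythroid genes tested were not called. Erythroid calls were 33.3% higher and none lower, and 1, 1, 2 and 1 higher and none lower with 1 array left out. The list's summed level was 44354 and 28727 at 1 d, against 35205 and 33068 at 12 h and 49136 and 42308 in untreated muscle, and its groups overlapped. Of 24 genes of haem, iron and metallothionein 3 were higher (Slc11a1, Gsr and Gclm) and 1 lower, Alas1, the form of the enzyme in other tissues, at 5409 and 4835 at 1 d, against 9919.5 and 6505 at 12 h (log2 -0.65, adjusted p = 0.0203). Haem and iron calls were 12.5% higher and 4.17% lower, and 0, 6, 0 and 3 higher and 0, 0, 0 and 3 lower with 1 array left out. Haem oxygenase, Hmox1, was 46297 and 20961 at 1 d, against 20270.0 and 21291 at 12 h and 2169.7 and 1964 in untreated muscle, and Mt1 was 36295 and 19512 at 1 d, against 26512 and 35079 at 12 h. Both were high at each time, and neither was called (adjusted p = 0.241 and 0.652).

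Of 21 endothelial genes 3 were higher (Emcn, Eng and Sox18) and 2 lower. Endothelial calls were 14.3% higher and 9.52% lower, and 2, 2, 2 and 4 higher and 1, 2, 1 and 2 lower with 1 array left out. Emcn, endomucin, was 1756 and 1676 at 1 d, against 624 and 997 at 12 h (log2 1.12 ± 0.17, adjusted p = 8.95e-05). The water channel Aqp1 was 679.6 and 1733 at 1 d, against 5690.2 and 2962 at 12 h and 6521 and 7323 in untreated muscle (log2 -1.92, adjusted p = 5.16e-05), and the tight junction gene Cldn5 was 693 and 1246 at 1 d, against 3504 and 1664 at 12 h (log2 -1.38). Emcn and Aqp1 were stable in opposite directions. Another probe set of Aqp1 changed by -0.37. The list's summed level was 23016 and 24959 at 1 d, against 23241 and 24763 at 12 h and 22362 and 21954 in untreated muscle. Of 11 smooth muscle and pericyte genes 3 were lower and none higher, with Rgs5 at -0.90, Smtn at -1.75 and Myl9 at -0.68. Smooth muscle calls were none higher and 27.3% lower, and none higher and 1, 3, 1 and 4 lower with 1 array left out. Of 14 adipocyte genes 2 were lower, Adipoq (-1.04) and Car3 (-1.52). Adipocyte calls were none higher and 14.3% lower, and none higher and 0, 6, 0 and 4 lower with 1 array left out. The median log2 change of the list was -0.80, and its summed level was 26298 and 44220.0 at 1 d, against 76175 and 59306 at 12 h and 82486 and 86383 in untreated muscle, with no overlap of the times. Of 12 nerve and Schwann cell genes none was called in limma, with 1 lower at an unadjusted p under 0.05. Of 14 genes of the circadian clock 2 were lower, Nr1d2 (-1.11, adjusted p = 0.000745) and Per2 (at least -1.06, adjusted p = 0.0156). Circadian calls were none higher and 14.3% lower, and none higher and 2, 2, 1 and 4 lower with 1 array left out.

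The remaining genes with the largest changes were of mixed kinds. Mapk7, the kinase ERK5, was 706 and 606 at 1 d, against 54.8 and 119 at 12 h (log2 at least 2.90, adjusted p = 0.000292). Tent5c, a poly(A) polymerase, was 1932 and 932 at 1 d, against 167 and 207 at 12 h (log2 2.85, adjusted p = 7.09e-05), and Nap1l1, a histone chaperone, was 2039 and 2729 at 1 d, against 466 and 769 at 12 h (log2 1.98 on Av2 and at least 1.68 on A, called on both). In untreated muscle Tent5c had 289.7 and 209 and Nap1l1 had 616 and 626, near the 12 h arrays. Among the falls, Cyp2e1, a cytochrome P450, was 609 and 1072 at 1 d, against 7155 and 2220.1 at 12 h and 6332 and 5801 in untreated muscle (log2 -2.30, adjusted p = 0.000159, called on A). Ptx3, a pentraxin of innate defence, was 1107 and 1648 at 1 d, against 4401 and 4249.8 at 12 h and 572 and 566 in untreated muscle (log2 -1.68, called on A), and Akap12, a kinase anchor, was 515 and 588 at 1 d, against 2259 and 1458 at 12 h (log2 -1.72, called on A). Both of the last pair had their highest mean of the time course at 12 h. BC051019 and Mpzl2 were below the floor on both 1 d arrays, so their changes of -2.62 and -2.58 are at least that large. Rises of over 2 on the log2 scale were also called for Praf2, B4galt2, Cela1, Pea15a, Ube2l6 and Pip4k2c, and falls for Mlf1, Agt, Tbx15, Pkia and Syngr1. Of these, Praf2, Tbx15 and Syngr1 were stable.

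**Figure D5:**
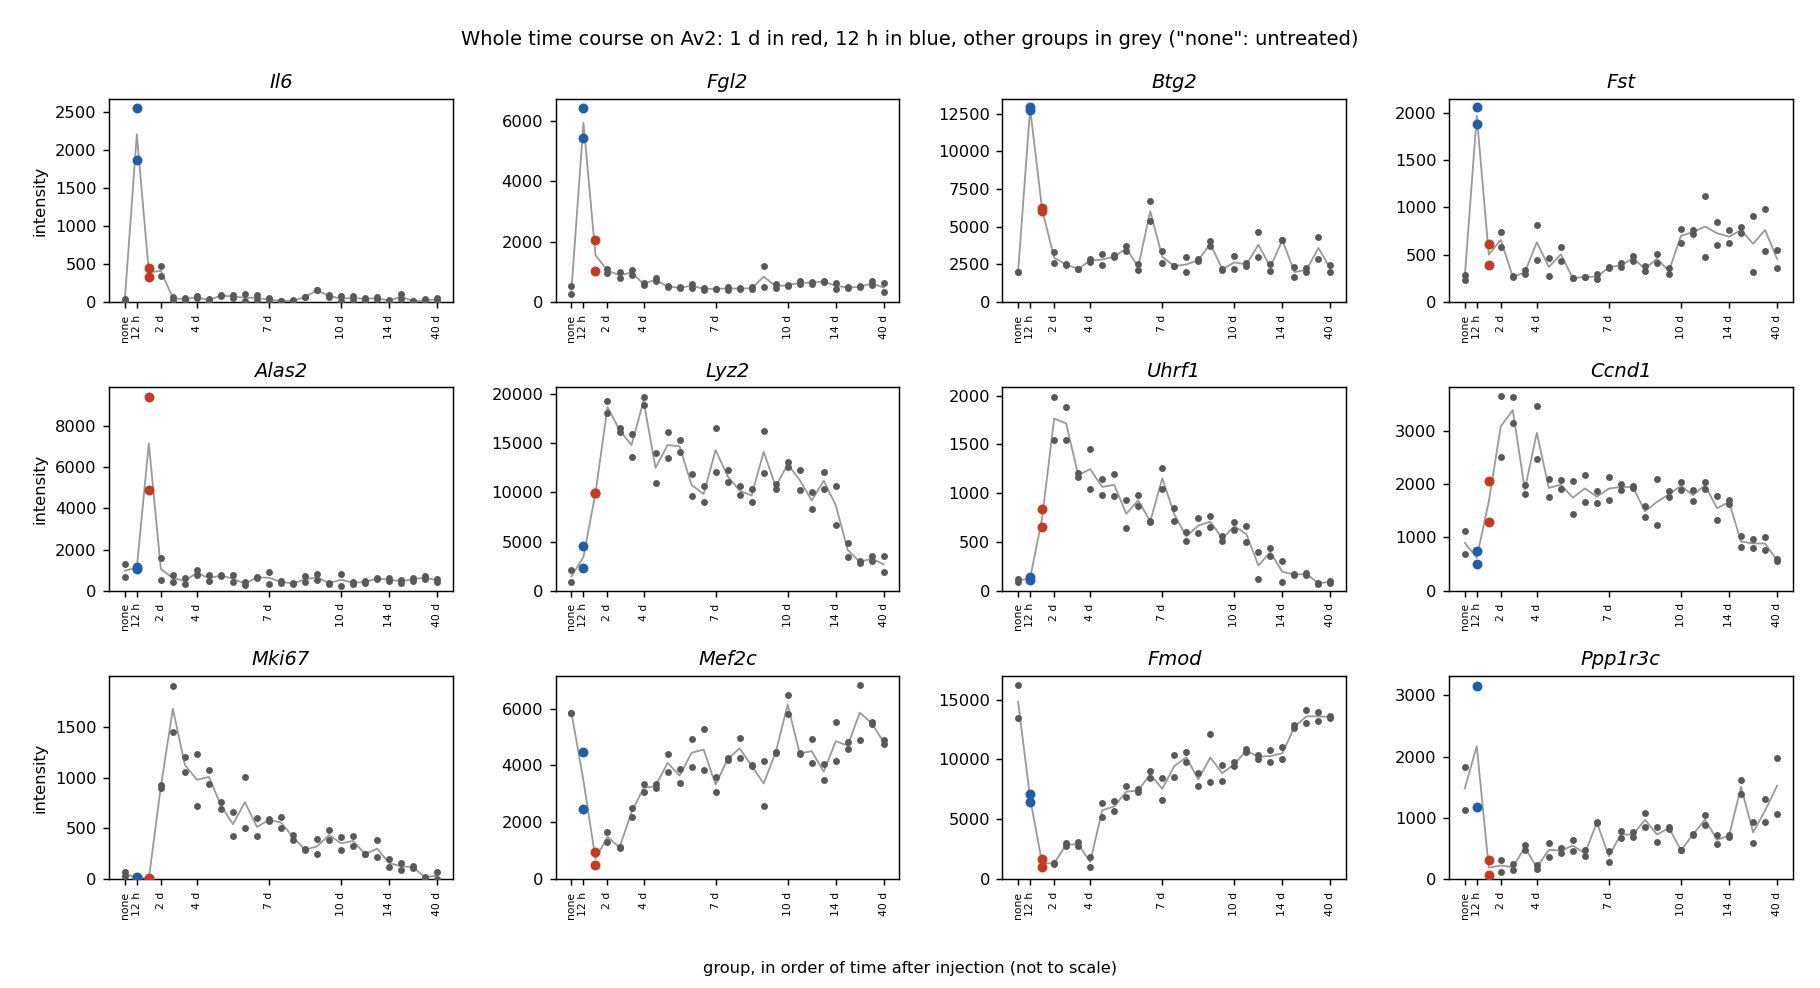
Intensity on Av2 of 12 genes in the untreated group and the 26 times after injection, in order of time and not to scale, with both arrays of each group as points and their mean as a line. The 12 h arrays are blue and the 1 d arrays red. Il6, Fgl2, Btg2 and Fst have their highest mean at 12 h and Alas2 at 1 d, Lyz2, Uhrf1 and Ccnd1 go on to higher means at 2 to 4 d, and Mef2c, Fmod and Ppp1r3c are at or near their lowest at 1 d.

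The whole course placed the 2 times. Il6 had a mean of 2207 at 12 h, and the next highest was 410.8 at 2 d. Btg2 and Fgl2 had their highest means at 12 h (12832 and 5937) and their next highest at 1 d (6138 and 1553). The 1 d mean of Mef2c and of Ppp1r3c ranked last of the 27 groups. For Lyz2 the highest mean, 19335, came at 4 d, for Uhrf1, 1766, at 2 d and for Ccnd1, 3387, at 3 d. Of the 111 stable genes called higher, 11 had their highest mean at 1 d, 23 at 2 d and 34 at 3 d. Of the 53 stable genes called lower, 16 had their highest mean at 12 h and 12 in untreated muscle. The calls partly set these times, since a gene called higher cannot be highest at 12 h, nor one called lower at 1 d. The highest times were not counted over all genes. On A, 74 of the 83 stable higher genes tested and all 38 of the stable lower genes tested had the same sign. Over all probe sets tested on both versions, called or not, the share was 73.6%.

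Promoter motifs were also counted over the calls. TGANTCA, the AP-1 motif, which reads the same on both strands, was present in 4.62% of the windows of genes called higher and in 7.91% of those of genes called lower, against 6.19% over all genes tested and 7.81% over the whole RefSeq set. GGGANTTTC, the NF-kB motif, was present in 1.03% and 1.02%, against 1.09% over all genes tested. GAANNTTC, a pair of heat shock units, was present in 5.82% and 6.89%, against 5.86%. None of these shares was tested, and a match is a run of letters and not a shown site.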

How the data were processed

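Mouse gastrocnemius RNA was measured on 2 versions of an Affymetrix array. The authors deposited 1 intensity per probe set and array, with the unit and the summary method not given in the sources used here. The scale was read from the values, whose trimmed mean was between 800.4 and 800.8 on all arrays. On A 2611 probe sets were 0 on every array and 16% of the values were below 0. The 66 control probe sets were left out. Values were floored (64.7 on Av2, 646.8 on A), log2 transformed and fitted with limma 3.58.1 in R 4.3.3, with 1 coefficient per time (52 arrays at 26 times on Av2, 10 arrays at 5 times on A, untreated arrays left out). The contrast was 1 d minus 12 h, with moderated tests and Benjamini-Hochberg adjustment over 11979 and 4479 probe sets above the floor on at least 2 of the arrays fitted. The test was run on simulated data first. These had the same spread at every time, so they could not show the effect of the larger spread at 12 h and 1 d. The number of arrays limits the precision. The p-values measure only the spread between arrays, pooled over all times fitted, which was smaller at most times than at 12 h and 1 d.

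Of the Av2 probe sets tested 10492 had 1 symbol, 384 several and 1103 none in the platform annotation, and 0 symbols needed updating against GRCm38.p6. The brightest probe set stood for a gene. Of 53 named genes with other probe sets tested, 0 had one called the opposite way. Other probe sets could still change less, as for Adgre1 and Aqp1, or the other way without a call, as for C1qb. The 39 gene lists (1223 genes, 1009 tested) and the comparison were chosen with earlier results of these data known. Genes named are the largest changes on Av2 without overlap of the groups and with the same sign on A where tested there, up to 4 members of each list per direction, the largest changes called on both versions, and a set of key genes, 2 of which were not analysed here. A few further list members and stable genes were named after their values were seen. Alternatives were the arrays fitted, the normalization, the floor, the filter, the variance model, a required fold, the rule of agreement and each array left out in turn. The stable set and the counts without either 12 h array were added after the data had been examined.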

Additional observations from a re-analysis of the deposited data

Results flagged for a closer look

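Some of the manufacturer's control probe sets, which no comparison used, read higher on single arrays of these times than on both untreated arrays and on every array of the other times on Av2. The 3′ probe set for 18S ribosomal RNA had an intensity of 2699.9 on 1 d replicate 1 and 1753.8 on 12 h replicate 2, against at most 1224.8 on the untreated arrays, and the 5′ one had 895.4 and 732.8 on those arrays, against at most 345.6 untreated. The sense-strand probe sets for beta actin stood highest above the untreated arrays, with 1432.5 on 1 d replicate 1 and 1268.6 on 12 h replicate 2 for the 3′ part, against at most 406.3 untreated, and 1729.4 and 827.9 for the middle part, against at most 190.7. On 1 d replicate 1 alone the sense-strand sets for the 3′ and middle parts of Gapdh had 1302.0 and 1595.0, against at most 801.0 and 944.7 untreated, the MUR b2 repeat had 2825.6, against at most 1669.2, and the sense-strand set for the 5′ part of the bacterial BioB had 424.6, above both untreated arrays. The MurFAS set had 488.3 on 1 d replicate 1 and 329.8 on 12 h replicate 2, against at most 228.4 untreated. Among the 4 arrays of 1 d and 12 h, these are also the arrays on which the added bacterial transcripts read highest, and their part in the gene changes was not tested.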

How the results depend on the processing

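On Av2 1243 probe sets were called, and quantile normalization, median scaling, other floors, other filters, a variance trend and added untreated arrays kept the count within 1.5 times. The 4 arrays alone gave 0 on Av2 (627 of 10387 at an unadjusted p under 0.05 in limma), 0 on A (263 of 3706), 0 agreeing probe sets, 0 of the 209 list members and 0.0% of the 188 named genes, of which 87.2% were called. A required change of 2-fold left 6 on Av2, 3 on A, 0.134% of probe sets agreeing, 4 list members and 3.19% of named genes. The agreeing probe sets, 448 higher and 313 lower of 4479 tested on both, made up 8.43% of those tested with no filter, where 9977 were tested, and 1.43% when called on both. Leaving out 1 array gave 510 to 2456 calls on Av2, 6 to 1318 on A, 4.91% to 33.9% agreeing, 88 to 355 list members and 31.9% to 76.6% of named genes. Most of the lowest came without 12 h replicate 1 (on A, without 1 d replicate 1), and the highest all came without 12 h replicate 2. Calls kept with every array left out in turn numbered 208 probe sets and 42 list members, and 46 list members were kept without either 12 h array. On A the 94 calls became 166 with untreated arrays, 24 with no filter and 54 with a robust variance trend. The share of them higher at 1 d, 60.6%, became 33.3% with no filter, 38.9% with the trend and 0.0% with the required fold. Lower calls were also the majority on A without 1 d replicate 1 and without 12 h replicate 1. Probe sets over 2-fold apart between the 1 d arrays numbered 1225 on Av2 with 2 times the floor, against 1943. On A, 0.5 and 2 times the floor gave 496 and 114 at 1 d, against 238, and 1368 and 463 at 12 h, against 843. The cause of these differences was not tested. No named gene that was called changed sign under these alternatives. No paired analysis was possible because the replicate numbers were given in accession order and the array codes are not said to mark shared animals. With 2 arrays a group, and with the 12 h RNA possibly shared between versions, small changes and dim genes were not resolved, above all on A with its higher floor.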

Other observations

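Among the stable genes outside the lists, several encode proteins of the secretory pathway. They were picked after their values were seen, and no test was made of them as a group. Fkbp11, a folding isomerase of the endoplasmic reticulum, had intensities of 381 and 498 at 1 d, against 158 and 145 at 12 h and 83.8 and 35.8 in untreated muscle (log2 1.53, adjusted p = 7.62e-05, limma). Kdelr3, a receptor that returns proteins to the endoplasmic reticulum, had 651 and 1176 at 1 d, against 210.1 and 352 at 12 h. Pdia5 and Creld2, also of folding, changed by 1.44 and 1.42, and Ddost and Ostc, subunits of the complex that adds sugar chains, by 1.21 and 1.14. Ppib and Erp29 changed by 0.92 and 0.81, and Erp29 was called on A too. In each of the 8 both 1 d arrays lay above both 12 h arrays, which a stable call favours. Over all 11979 Av2 probe sets, called or not, this held for 1947.

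Both enzymes of the non-oxidative pentose phosphate pathway with a stable call were higher at 1 d. Tkt, transketolase, had 6279.6 and 4594 at 1 d, against 2252 and 2332 at 12 h and 952 and 916 in untreated muscle (log2 1.23, adjusted p = 0.00109), and Taldo1, transaldolase, had 3343 and 2808 at 1 d, against 1453 and 1719.7 at 12 h (log2 0.96, adjusted p = 0.000126, called on A). Txn1, thioredoxin, had 13302 and 13376 at 1 d, against 6318 and 8019.8 at 12 h and 4042 and 3974 in untreated muscle, and was called on A. The arrays of each group lay close together for Txn1. Among the stable falls outside the lists were genes of muscle fibres: Smyd1, a methyltransferase of the sarcomere, had 142 and 544 at 1 d, against 2569 and 894 at 12 h and 4178 and 4052 in untreated muscle, and Myom2, a protein of the M band, had 698 and 892 at 1 d, against 3086 and 1562 at 12 h (log2 -1.48, adjusted p = 1.15e-05). Errfi1, an inhibitor of the EGF receptor, had its highest mean of the time course at 12 h, with 7447 and 7803 at 1 d, against 12566 and 12844 at 12 h and 1274 and 2155 in untreated muscle (log2 -0.74, adjusted p = 0.00165).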
